A study of Bos taurus with 30 samples.

Results

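The genes described here encode the proteins of the mitochondrial ribosome, together with MALSU1, a factor that assists its assembly, in the uterine lining of pregnant cows. They were taken as every probe on the array whose annotated symbol began with MRPL or MRPS followed by a digit, or was MALSU1. The rule found 64 genes on 67 probes, among 13824 probes and 8073 genes with 1 symbol. All 64 genes were tested. Of the large subunit, 43 proteins were measured, MRPS18A among them because that protein sits in the large subunit despite its name. Of the small subunit, 19 were measured. MRPS36, once counted as a ribosomal protein, is now assigned to the oxoglutarate dehydrogenase complex and was kept apart, as was MALSU1. The bovine RefSeq gene table of assembly ARS-UCD2.0 lists 79 protein-coding genes that meet the rule, so 15 of them, MRPS7, MRPL1 and MRPL40 among others, were not analysed here.

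Mitochondria hold ribosomes of their own, which translate the few membrane proteins of the respiratory chain and ATP synthase that the mitochondrial genome encodes. In animals all proteins of these ribosomes are encoded in the nucleus, made in the cytosol and imported, so that their supply ties the capacity for respiration to nuclear gene expression. MALSU1 binds the large subunit through the intersubunit protein MRPL14, together with the mitochondrial acyl carrier protein NDUFAB1, and keeps the small subunit from joining before the large subunit is mature.

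Each array compared the caruncles, the placental attachment sites of the endometrium, with the intercaruncular endometrium that lies between them and holds the glands, both from 1 cow. Of 15 cows, 5 carried a pregnancy from artificial insemination (AI), 5 from in vitro fertilisation followed by embryo transfer (IVF-ET), and 5 from somatic cell nuclear transfer (SCNT), in which a donor cell's nucleus is placed in an enucleated egg. Each cow had 2 arrays, and the labels give the same tissues and the same RNA preparation for all groups. They name the groups by the reproductive method alone, so age, breed and stage of pregnancy are not described here.

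Each measurement is the log of the signal of a tissue over that of its partner, taken as log2, and gives no level in either. Which tissue stands on the positive side was not settled by the labels or by the lists of gland genes, so results are given as the negative or the positive side of the ratio. Between 26744 and 27643 spots per array carried a value. Replicate 3 of IVF-ET was left out, because the labels give both its arrays the same dye orientation. That left 4 IVF-ET cows beside 5 AI and 5 SCNT cows. SCNT replicate 5 had the widest spread of values, with an SD over all tested probes of 0.699 against at most 0.324 in the other 13 cows. Over all probes, the mean profile of AI correlated at -0.293 with SCNT and at -0.271 with IVF-ET, while IVF-ET and SCNT correlated at 0.455 (Pearson, across probes that share arrays and are not independent). Differences from AI are therefore given with the sign of AI turned as well. In bulk tissue, fewer cells of a type and less RNA per cell cannot be told apart.

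As deposited, MALSU1 (gene 509253) lay on opposite sides of the ratio in most AI cows and in cows with a transferred embryo. In AI replicates 1 to 5 its log2 ratio was -0.06, 0.48, 0.59, 0.58 and 0.45. In IVF-ET replicates 1, 2, 4 and 5 it was -0.81, -0.35, -0.56 and -0.59. SCNT replicates 1 to 5 had -0.28, -0.62, -0.71, -0.42 and -0.08. All 9 IVF-ET and SCNT cows used, which leave out IVF-ET replicate 3, were negative and lay below every AI cow. AI replicate 1 and SCNT replicate 5 nearly touched. With the dye effect off, the arrays of SCNT replicate 5 read 0.40 and -0.55, and those of AI replicate 1 read -0.23 and 0.11. The arrays of either cow thus lay further apart than the cows did. MALSU1 was the only member gene with this separation, which 0.492% of all probes showed. It rests on the sign of AI as deposited: with that sign turned, the AI cows read 0.06, -0.48, -0.59, -0.58 and -0.45 and overlap the others, and 0 members and 0.0724% of all probes are so separated. Group means were 0.41 ± 0.27 in AI (SD, n = 5), -0.58 ± 0.19 in IVF-ET (SD, n = 4) and -0.42 ± 0.25 in SCNT (SD, n = 5).

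**Figure D1:**
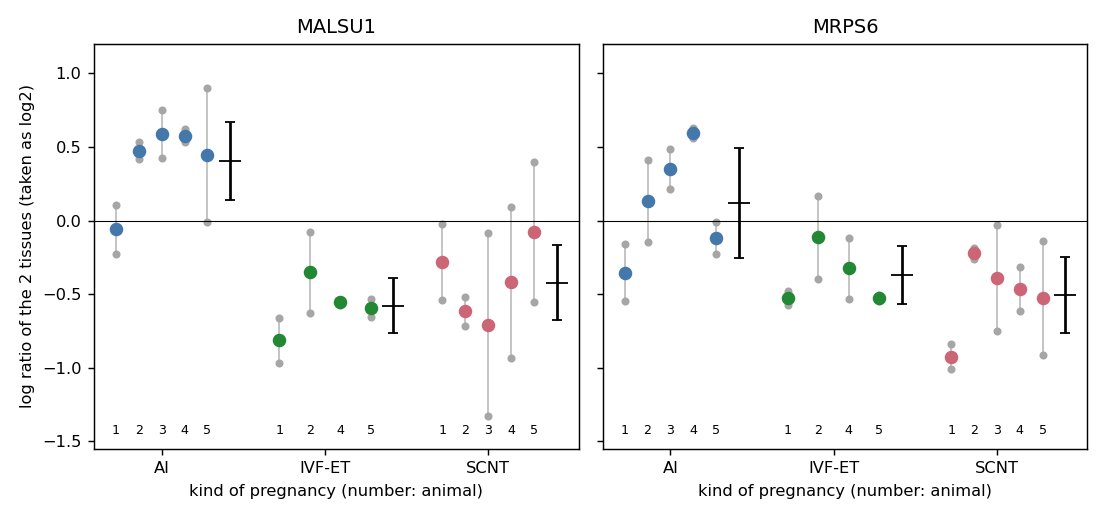
Log ratios of MALSU1 (left) and MRPS6 (right) by cow in AI, IVF-ET and SCNT pregnancies. Coloured points are cows, small grey points their 2 arrays after the probe's dye effect was taken off, and black bars the group mean ± SD. Every IVF-ET and SCNT cow shown is below 0 for both genes, and for MALSU1 below all AI cows, whose mean is 0.41 with the sign of AI as deposited. IVF-ET replicate 3 is left out.

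The mean of MALSU1 over IVF-ET and SCNT together was -0.50 ± 0.08 (SE), a 1.41-fold ratio between the tissues, and passed the threshold of 0.05 (limma, Benjamini-Hochberg over 13818 probes, adjusted p = 0.00420). By unadjusted p it stood at place 44 of all probes and first among the members. Within the separate groups the mean did not pass, with adjusted p = 0.0589 in SCNT, 0.187 in IVF-ET and 1.00 in AI. The unadjusted p in those groups were 0.00125, 0.000197 and 0.00167. The differences between groups did pass. SCNT minus AI was -0.83 ± 0.15 (SE, adjusted p = 0.0212), and IVF-ET minus AI was -0.98 ± 0.16 (SE, adjusted p = 0.0487). Both differences use the same AI cows. By p, MALSU1 stood at place 3 of 13818 probes for IVF-ET minus AI. It was 1 of the 8 probes, 0.0579%, that passed there, and 1 of 131, 0.948%, for SCNT minus AI. SCNT and IVF-ET differed by 0.16, with a 95% interval from -0.18 to 0.50 (adjusted p = 0.925). Intervals are not adjusted for the number of probes.

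Single arrays leaned the same way with more scatter, and their ranges overlapped between groups. Before the dye effect was taken off, MALSU1 was negative on 8 of 8 IVF-ET arrays, on 8 of 10 SCNT arrays and on 2 of 10 AI arrays. These arrays ranged from -1.17 to -0.28 in IVF-ET, from -1.12 to 0.60 in SCNT and from -0.43 to 1.10 in AI. Its 2 spots on an array differed by a median of 0.101, and only 1 probe measured it. The arrays of IVF-ET replicate 3, which entered no mean, read 1.10 and -0.49.

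The MALSU1 result for IVF-ET and SCNT together passed under 24 of 26 other settings. Several of these could not move its mean of -0.50, among them turning the sign of AI or leaving out an AI cow. The result was lost when values were read as dye ratios (-0.17, adjusted p = 0.334). It was also lost when IVF-ET replicate 3 was kept with its second array turned (-0.38, adjusted p = 0.195). The differences from AI were less firm. With the sign of AI turned, SCNT minus AI was -0.01 (adjusted p = 0.990) and IVF-ET minus AI was -0.17 (adjusted p = 0.999). SCNT minus AI missed the threshold without AI replicate 2, 3 or 4 or SCNT replicate 2 or 3, with adjusted p of 0.0542, 0.0758, 0.0795, 0.0587 and 0.0528. IVF-ET minus AI passed only when the cow left out was AI replicate 1, AI replicate 5 or SCNT replicate 5. Leaving out any other cow gave adjusted p between 0.0599 and 0.264.

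Markers of cell types moved in the same cows. Of 7 stromal fibroblast markers measured, 5 passed on the negative side in IVF-ET and SCNT together and 4 in SCNT. Of all 13818 probes, 241 and 146 did so. The stromal median per cow ranged from -0.03 to 0.62 in AI, from -0.79 to -0.23 in IVF-ET and from -0.97 to -0.42 in SCNT. Of 6 epithelial markers, 2 passed on the positive side in IVF-ET and SCNT together, beside 224 of 13818 probes. The epithelial median ranged from -0.55 to 0.29 in AI, from 0.25 to 0.92 in IVF-ET and from -0.11 to 0.56 in SCNT. Replicate 1 had the lowest MALSU1 and the highest stromal median among AI cows, and the lowest of both among IVF-ET cows. Among SCNT cows, replicate 1 had the lowest stromal median, -0.97, beside MALSU1 at -0.28. Replicate 3 had the lowest MALSU1 there, -0.71, beside a stromal median of -0.42. Of 9 trophoblast markers 0 passed by limma in SCNT, in IVF-ET or in both together. At an unadjusted p under 0.05 there were 4, 0 and 3, beside 14.8%, 7.95% and 15.1% of all probes. Read as dye ratios, the stromal median averaged -0.11 in AI, 0.02 in IVF-ET and -0.10 in SCNT, and the epithelial median 0.02, 0.11 and -0.03. A ratio does not show whether a marker is absent from both tissues. The part of tissue makeup in the MALSU1 result was not tested.

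The partners of MALSU1 on the large subunit did not pass. MRPL14 (gene 614579), the protein it contacts, had means of -0.05 in AI, -0.09 in IVF-ET and 0.12 in SCNT, and 0.01 ± 0.07 (SE) in IVF-ET and SCNT together (limma, adjusted p = 0.962). Its second probe gave 0.05 ± 0.09. NDUFAB1, which carries acyl chains for fatty acid synthesis and is also a subunit of respiratory complex I, gave -0.15 ± 0.07 (SE, adjusted p = 0.357), with means of -0.02 in AI, -0.20 in IVF-ET and -0.09 in SCNT. Whether these genes differ from MALSU1 was not tested.

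MRPS6 (gene 615431), a small-subunit protein with a bacterial counterpart that sits on that subunit's platform, was the other member to pass. It read -0.35, 0.13, 0.35, 0.60 and -0.12 in AI replicates 1 to 5. In IVF-ET replicates 1, 2, 4 and 5 it read -0.53, -0.11, -0.32 and -0.52. SCNT replicates 1 to 5 had -0.93, -0.22, -0.39, -0.46 and -0.53. All 9 IVF-ET and SCNT cows were negative, as for MALSU1 and 2.12% of all probes, but their range overlapped that of the AI cows, of which 2 were negative too. Its mean was -0.50 ± 0.12 (SE) in SCNT (limma, adjusted p = 0.0491) and -0.44 ± 0.09 in IVF-ET and SCNT together (adjusted p = 0.0158). In IVF-ET alone it was -0.37 ± 0.14 (adjusted p = 0.491). SCNT minus AI was -0.63 ± 0.18 (adjusted p = 0.109), and -0.38 with the sign of AI turned (adjusted p = 0.763).

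The SCNT result for MRPS6 lay close to the threshold and held under 11 of 26 other settings. It was lost without any 1 cow other than AI replicate 1 or 4, with adjusted p between 0.0507 and 0.181, the highest of them without SCNT replicate 1. The result for IVF-ET and SCNT together held under 22 of 26, some of which, as for MALSU1, could not move the mean. That result was lost without IVF-ET replicate 1 (adjusted p = 0.0750) or 5 (adjusted p = 0.0569). Read as dye ratios, its sign turned, to 0.22 (adjusted p = 0.113).

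MALSU1 and MRPS6 were 2 of 64 members, 3.12%, to pass in IVF-ET and SCNT together, where 3.37% of all probes passed. In SCNT, 1 of 64 passed, or 1.56% beside 1.82% of all probes. At an unadjusted p under 0.05 the members numbered 12 in SCNT (14.8% of all probes did) and 9 in IVF-ET and SCNT together (15.1%). The shares of members were thus near those of the whole array. None passed in IVF-ET, in AI or in SCNT minus IVF-ET, where 0% of all probes passed by limma. At an unadjusted p under 0.05 the members numbered 3 in IVF-ET (7.95% of all probes did), 1 in AI (4.37% of all probes) and 2 in SCNT minus IVF-ET (4.41%).

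**Figure D2:**
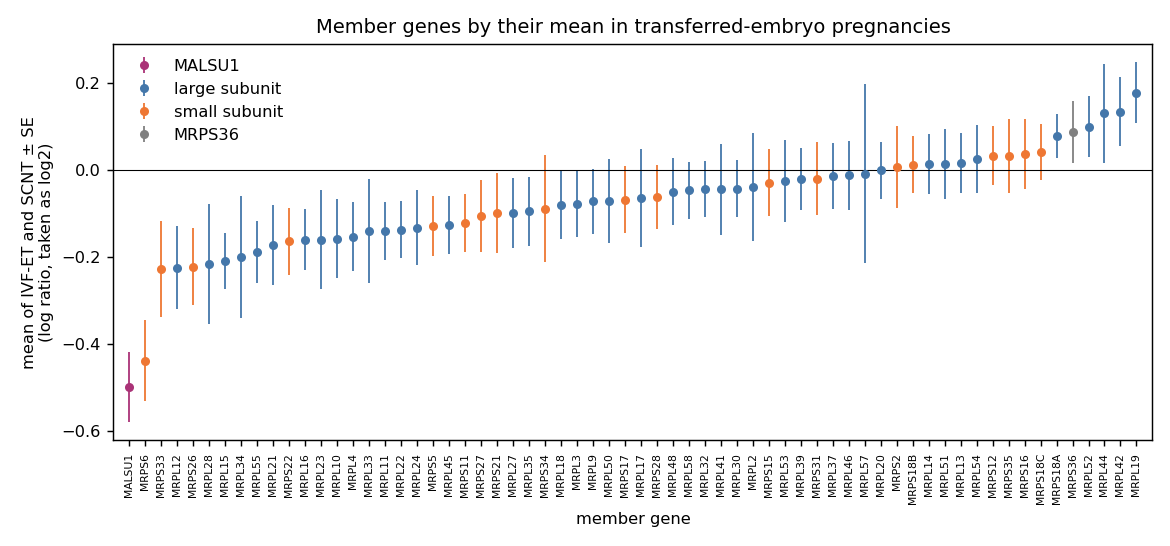
Mean log ratio of each of 64 member genes over IVF-ET and SCNT cows, with its SE from limma, in ascending order and coloured by subunit. MALSU1 (-0.50) and MRPS6 (-0.44) stand apart at the left, 48 genes lie below 0, and MRPL19 (0.18) is highest.

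Below these genes the values ran without a gap, and 48 of 64 members were under 0, beside 50.8% of all probes. In the large subunit, MRPL15, a protein of the subunit's core with a bacterial counterpart, came nearest to passing. Its ratio in AI replicates 1 to 5 was 0.09, 0.03, 0.19, 0.01 and -0.08. It was -0.18, -0.49, 0.09 and -0.18 in IVF-ET replicates 1, 2, 4 and 5, and -0.32, 0.02, -0.26, -0.16 and -0.41 in SCNT replicates 1 to 5. Most IVF-ET and SCNT cows were thus below the AI cows, but 1 in each group was not. The mean over IVF-ET and SCNT was -0.21 ± 0.06 (SE, limma, adjusted p = 0.0949).

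The stalk of the large subunit, where translation factors dock, is formed by MRPL12 on its anchor MRPL10, next to MRPL11 at its base. In IVF-ET and SCNT together the mean was -0.22 ± 0.10 for MRPL12, -0.16 ± 0.09 for MRPL10 and -0.14 ± 0.07 for MRPL11 (SE, limma, adjusted p = 0.267, 0.468 and 0.344). MRPL12 was negative in all 5 SCNT cows, at -0.03, -0.61, -0.13, -0.14 and -0.65 in replicates 1 to 5, though 1 AI cow, replicate 1, was at -0.46. None of these stalk proteins passed in any test.

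The other side held 16 of 64 members in IVF-ET and SCNT together and 21 in SCNT. MRPL19, which helps form the bridges to the small subunit, was positive in all 5 SCNT cows, at 0.08, 0.29, 0.34, 0.04 and 0.68, with a mean of 0.29 ± 0.09 (SE, adjusted p = 0.145). AI cows had -0.11, -0.19, -0.06, -0.14 and 0.26, so the groups overlapped through AI replicate 5. MRPS18A was the other member positive in every SCNT cow, with a mean of 0.15 ± 0.07 (SE, adjusted p = 0.309). Every SCNT cow was positive at 7.36% of all probes and negative at 6.98%. Of the members, 6 were negative in every SCNT cow, namely MALSU1, MRPL12, MRPL13, MRPL55, MRPS6 and MRPS26. MRPL55, found only in mitochondrial ribosomes, had the tightest values of these, from -0.41 to -0.21, with a mean of -0.28 ± 0.09 (SE, adjusted p = 0.155).

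Taken over the whole set, the means leaned to the negative side in both groups with transferred embryos. They were below 0 for 43 of 64 members in SCNT and 45 of 64 in IVF-ET, where 50.2% and 49.7% of all probes were. In AI they were below 0 for 31 of 64, beside 47.9% of all probes. The median over members was negative in each of the 9 IVF-ET and SCNT cows and in 3 of 5 AI cows. Averaged over cows it was -0.09 ± 0.06 in SCNT (SD, n = 5), -0.07 ± 0.04 in IVF-ET (SD, n = 4) and 0.03 ± 0.09 in AI (SD, n = 5). Leaving out MALSU1 and MRPS6 changed these medians little, to -0.08, -0.07 and 0.02. Without SCNT replicate 5, 46 of 64 members were below 0 in SCNT. Read as dye ratios, the medians in IVF-ET and SCNT turned to 0.05 and 0.04.

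The median per cow was below 0 on average in both subunits. The large subunit had a median per cow of -0.08 ± 0.08 in SCNT and -0.05 ± 0.03 in IVF-ET, and the small subunit -0.09 ± 0.10 and -0.10 ± 0.07 (SD). In SCNT, 32 of 43 large-subunit genes and 10 of 19 small-subunit genes, or 52.6%, were below 0, beside 50.2% of all probes. The latter count became 15 of 19 without SCNT replicate 5 and 14 of 19 with arrays scaled to equal SD. Proteins with a bacterial counterpart, 38 of the members, had a median of -0.10 ± 0.08 in SCNT (SD). The 24 found only in mitochondria had -0.07 ± 0.09 (SD). Both medians come from the same cows, and their difference within a cow was not tested.

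Other gene families of translation and respiration leaned the same way. Cytosolic ribosomal proteins, 57 genes, had a median per cow of -0.16 ± 0.13 in SCNT, -0.15 ± 0.05 in IVF-ET and 0.04 ± 0.08 in AI (SD). Subunits of oxidative phosphorylation, 73 nuclear genes, had -0.10 ± 0.10 in SCNT, -0.13 ± 0.09 in IVF-ET and -0.00256 ± 0.0898 in AI (SD). Their means were below 0 for 48 of 57 and 57 of 73 genes in SCNT, beside 50.2% of all probes. In IVF-ET and SCNT together, 1 gene of each family passed, where 3.37% of all probes did. Read as dye ratios, the medians of the oxidative phosphorylation list turned to the positive side in IVF-ET (0.00681) and SCNT (0.00015), and those of the cytosolic list kept their side but shrank to -0.04 and -0.05.

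**Figure D3:**
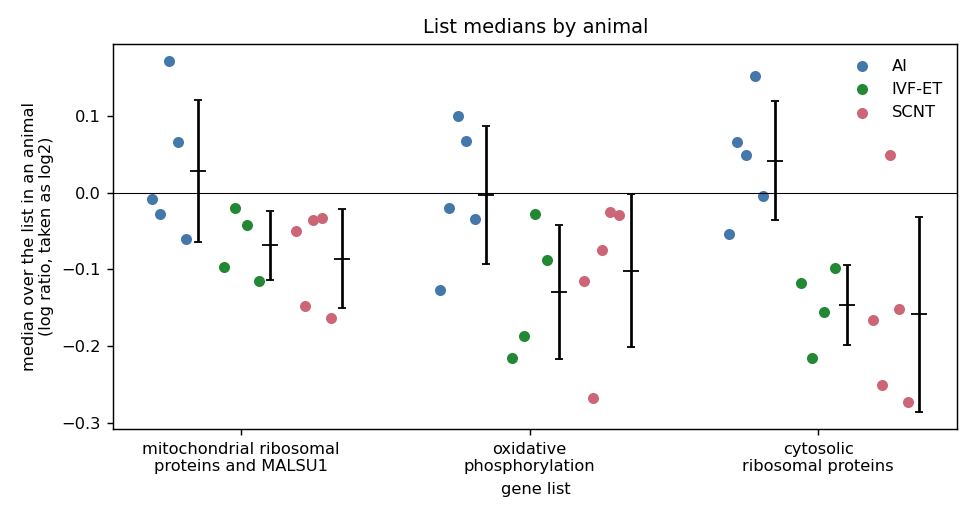
Median log ratio over 3 gene lists in each cow, by kind of pregnancy; points are cows and black bars the mean ± SD over cows. For the mitochondrial ribosomal proteins all 9 IVF-ET and SCNT cows lie below 0, none lower than -0.16, while AI replicate 3 is highest at 0.17.

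The IVF-ET and SCNT groups differed at single members without passing. MRPL13, a core protein of the large subunit, was positive in every IVF-ET cow, at 0.01, 0.18, 0.14 and 0.38 in replicates 1, 2, 4 and 5. It was negative in every SCNT cow, at -0.30, -0.18, -0.10, -0.12 and -0.03 in replicates 1 to 5. The groups did not overlap, which was also so for MRPL55 on the same side, and for 1.14% of all probes. SCNT minus IVF-ET for MRPL13 was -0.33, with a 95% interval from -0.61 to -0.04 and adjusted p = 0.915 (limma). MRPL18, a protein of the central protuberance, was the reverse case. It read -0.05, -0.38, -0.33 and -0.32 in IVF-ET and -0.36, 0.26, -0.05, 0.39 and 0.32 in SCNT, where replicate 1 lay within the IVF-ET range. Its difference was 0.38, with a 95% interval from 0.05 to 0.71 (adjusted p = 0.915). MRPL17, MRPL34 and MRPL14, next by p, had differences of -0.42, -0.45 and 0.21, all with adjusted p = 0.915.

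In every IVF-ET cow 10 of 64 members were negative, beside 11% of all probes. Among them MRPL11 averaged -0.15 ± 0.13 and MRPS28 -0.16 ± 0.06 (SD, n = 4). On the positive side were MRPL13, MRPL42 and MRPL2, 3 of 64 beside 10.9% of all probes, with means of 0.18, 0.16 and 0.15. MRPL2 is a protein of the peptidyl transferase centre and had the single most negative AI value among members, -1.20 in replicate 5.

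In AI cows MALSU1 had the largest mean of the members. MRPS34 and MRPS35, both small-subunit proteins without a bacterial counterpart, were the members positive in all 5 AI cows, 2 of 64 beside 2.73% of all probes. MRPS34 read 0.38, 0.11, 0.02, 0.21 and 0.28, and MRPS35 read 0.20, 0.05, 0.07, 0.20 and 0.49. Their means were both 0.20 (SE 0.164 and 0.114), with adjusted p = 1.00. For SCNT minus AI the next members by p after MALSU1 and MRPS6 were MRPL16 (-0.37 ± 0.13), MRPL19 (0.33 ± 0.13) and MRPL15 (-0.28 ± 0.12; SE, adjusted p = 0.208, 0.279 and 0.338). With the sign of AI turned these differences were -0.06, 0.24 and -0.18 (adjusted p = 0.940, 0.787 and 0.806). MRPL16 binds near the site where aminoacyl-tRNA enters.

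The widest values of the whole set came from SCNT replicate 5. Its SD over members was 0.618, against 0.148 to 0.308 in the other 13 cows. In this cow 8 members lay below -1, which among the others happened for 1 value. MRPL57 was at -1.96, MRPL34 at -1.76, MRPL28 at -1.57, MRPS34 at -1.30 and MRPL23 at -1.24, followed by MRPS33, MRPL41 and MRPL17. The remaining SCNT cows ranged from -0.17 to 0.03 for MRPL34 and from -0.17 to 0.86 for MRPL57. At the other end MRPS35 was at 0.74, MRPS31 at 0.73, MRPL42 and MRPL19 at 0.68 and MRPL33 at 0.62. All of these had the same sign on both arrays of the cow, whose member values correlated at 0.735 between arrays. The median of that correlation over the 14 cows was 0.0744 for members and 0.126 for all probes. MRPS6 in this cow, at -0.53, was within the range of the other SCNT cows. MALSU1, at -0.08, was above them and the highest of all 9 IVF-ET and SCNT cows. Without this cow the SCNT mean of MALSU1 was -0.51 (limma, adjusted p = 0.0290). Leaving out SCNT replicate 1, 2, 3 or 4 instead gave adjusted p of 0.119, 0.180, 0.189 and 0.117. The SCNT mean of MALSU1 passed under only 3 of 26 other settings.

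**Figure D4:**
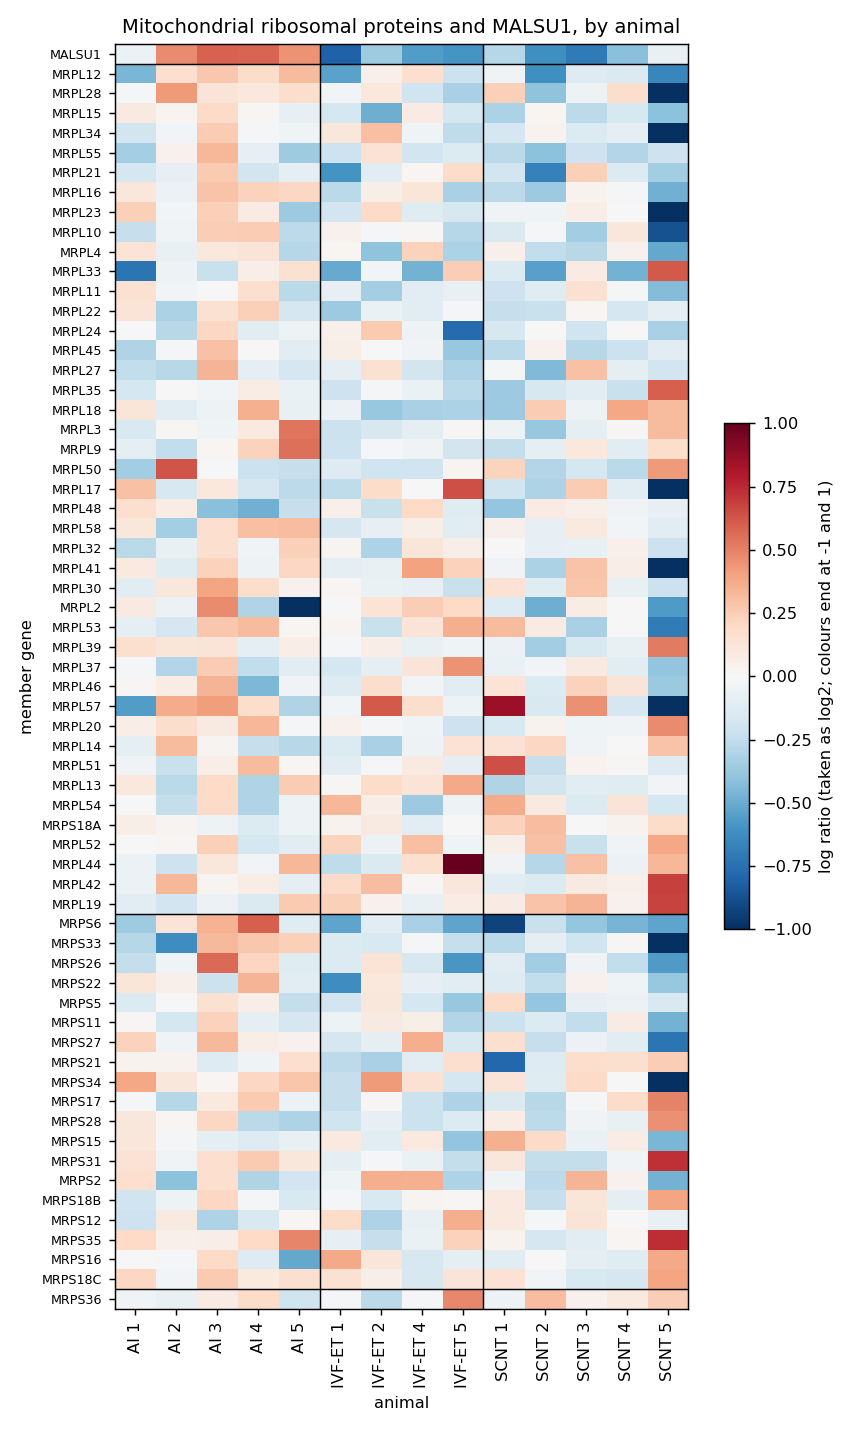
Log ratios of the 64 member genes (rows) in 14 cows (columns), with lines between MALSU1, the large subunit, the small subunit and MRPS36, and between groups; red is positive and blue negative, and colours end at -1 and 1. With the sign of AI as deposited, MALSU1 is positive in AI replicates 2 to 5 and negative in AI replicate 1 and in the other groups. SCNT replicate 5 holds the most values below -1 and above 0.5, though the highest value, 1.09 for MRPL44, is in IVF-ET replicate 5.

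Across members, the mean profiles of IVF-ET and SCNT correlated at 0.317 (Pearson, 64 genes, which share arrays and are not independent). Without MALSU1 and MRPS6 the value was 0.111. The profile of AI correlated at -0.362 with IVF-ET and -0.208 with SCNT, and at -0.105 and -0.039 without these genes. The values over all 64 members thus rested largely on this pair of genes. Genes with a pair of probes gave small values on both in IVF-ET and SCNT together, 0.01 and 0.05 for MRPL14, 0.01 and -0.11 for MRPL51, and -0.10 and -0.05 for MRPS21. The dye effect of members followed the order of probes on the array (Spearman 0.657, and 0.492 over all probes), whereas the mean over IVF-ET and SCNT followed it less (0.214, and -0.0123 over all probes).

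The rest of the machinery of mitochondrial gene expression gave few results. Of 19 measured genes for assembly of the mitochondrial ribosome, 0 passed in IVF-ET and SCNT together by limma, with 2 at an unadjusted p under 0.05. GRSF1, an RNA-binding protein of mitochondrial RNA granules, was at -0.20 ± 0.06 (SE, adjusted p = 0.0948). AURKAIP1, a small-subunit protein whose symbol lies outside the rule, was at -0.45 ± 0.13 (adjusted p = 0.0846). Of 10 translation factors, 0 passed, with 1 at an unadjusted p under 0.05. Of all probes, 3.37% passed in IVF-ET and SCNT together and 15.1% had an unadjusted p under 0.05.

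Among 20 aminoacyl-tRNA synthetases and tRNA enzymes, 1 passed. This was CARS2, the mitochondrial cysteinyl-tRNA synthetase, at -0.28 ± 0.06 (SE, limma, adjusted p = 0.0202) in IVF-ET and SCNT together. Of 20 genes for mitochondrial transcription and RNA handling, 1 passed. This was LRPPRC, which keeps mitochondrial messenger RNAs stable, at -0.29 ± 0.07 (adjusted p = 0.0211). In SCNT it was at -0.42 ± 0.09 (adjusted p = 0.0225). These shares, 1 of 20 in both lists, stand beside 3.37% of all probes.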

How the data were processed

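The authors deposited 1 log ratio per spot and array, taken here as log2 and found centred near 0; the method, the base and the scanner's processing are not given in the sources used here. Per the labels' protocols, RNA was copied with oligo-dT primers, aminoallyl nucleotides were coupled to Cy3 or Cy5, and the tissues exchanged dyes between the 2 arrays of a cow, except in IVF-ET replicate 3. Adjacent duplicate spots were averaged, arrays centred on their median, the probe's dye effect taken off and the 2 arrays of a cow averaged. Values were read as already turned to the tissues. The correlation used to check that reading was 0.00871 (median, 7 of 14 cows above 0), so it did not decide between the readings. Reading the values as dye ratios was an alternative.

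Group means were fitted with limma 3.58.1 (R 4.3.3) over 14 cows, for 13818 probes at which no group lacked more than 1 cow. Tests were two-sided and adjusted by Benjamini-Hochberg within a comparison; the fit was tested on simulated data. P-values measure the spread between these cows. Where a gene had several probes, the probe measured on most arrays stands for it. Of the probes, 8645 had 1 symbol, 105 several and 5074 none. Scanner intensities were not used, so signal over background is unknown, and the number of arrays limits the precision. Arrays of a group have adjacent numbers, so groups cannot be told apart from the order of arrays.

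The member genes, the lists and the tests were chosen with earlier results of these data known. Named are members that passed, members with the largest means among those on 1 side in every cow of a group (up to 5 a side), the 5 with the smallest p for each difference between groups, MALSU1, members with several probes, and 4 pathway genes with the smallest p. The stalk proteins, MRPS36 and the members of SCNT replicate 5 were named after their values were seen. Marker lists for smooth muscle, endothelium, leukocytes, glands and red blood cells had 0 genes passing by limma in SCNT, IVF-ET or both together. At an unadjusted p under 0.05 there were 1, 3 and 4 of 5 gland genes and 0 of the other lists. Of all probes, 14.8%, 7.95% and 15.1% did so. Gland means were above 0 for 5 of 5 genes in SCNT, 4 of 5 in IVF-ET and 3 of 5 in AI. The lowest, in IVF-ET, was -1.03. Below 0 in SCNT, IVF-ET and AI were 50.2%, 49.7% and 47.9% of all probes.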

Additional observations from a re-analysis of the deposited data

Results flagged for a closer look

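Among 75 groups of values, the highest or lowest cow stood apart from the rest of its group in 9. The rule was Dixon's ratio of gap to range at its 95% critical value. Its nominal rate of 1 in 20 groups does not hold here. The genes examined were named from these same values, and the groups share cows. SCNT replicate 5 accounts for 4 of the 9: MRPL34 at -1.76, MRPS34 at -1.30, MRPS35 at 0.738 and MRPL42 at 0.681, on arrays with the highest spread of all. AI replicate 1 was lowest for MALSU1 at -0.0596, where the other AI cows had 0.446 to 0.589, and for MRPL12 at -0.457. AI replicate 5 was highest for MRPL19 at 0.264. IVF-ET replicate 2 was lowest for MRPL11 at -0.341. The median over the large subunit was highest in AI replicate 3, at 0.170.

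MALSU1 differed between groups in both tests against AI, by -0.826 for SCNT and by -0.983 for IVF-ET (limma, adjusted p = 0.0212 and 0.0487). It lay below every AI cow in 9 of 9 IVF-ET and SCNT cows used. Not among them is IVF-ET replicate 3, whose arrays read 1.10 and -0.49. The separation and both differences rest on the sign of the AI values. MRPL13 lay on opposite sides in SCNT and IVF-ET cows, by -0.325. That difference did not pass (adjusted p = 0.915).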

How the results depend on the processing

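The tissues are paired within each cow by the ratio. Cows could not be paired between groups, because replicate numbers name different cows in each group. The number of members passing in SCNT, 1 as reported, was 0 with values read as dye ratios, with the excluded IVF-ET cow (replicate 3) entered and its second array turned, or with each group fitted alone, and 2 with arrays scaled to equal SD; leaving out 1 cow gave 0 to 2. In IVF-ET it was 1, not 0, with replicate 3 kept and its first array turned or with groups fitted alone, and 0 to 1 without 1 cow. In both groups together it was 0, not 2, as dye ratios and with replicate 3 kept and its second array turned, and 1 to 2 without 1 cow. For SCNT minus AI it was 0, not 1, as dye ratios, with the sign of AI turned, with replicate 3 kept and its second array turned, or with groups fitted alone, and 2 in a fit of arrays with the cow as a block; leaving out 1 cow gave 0 to 2. For IVF-ET minus AI it was 0, not 1, as dye ratios, with AI turned, with replicate 3 kept and its second array turned, or scaled, and 0 to 1 without 1 cow. In AI and SCNT minus IVF-ET leaving out 1 cow always gave 0.

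Read as dye ratios, the median over members was 0.0507 in IVF-ET and 0.0364 in SCNT. Leaving out 1 cow gave medians from -0.0849 to -0.0529 in IVF-ET, from -0.0989 to -0.0663 in SCNT and from -0.00739 to 0.0506 in AI. Signs that turned under the dye reading were those of MALSU1 in AI (-0.276), SCNT minus AI (0.132) and IVF-ET minus AI (0.0833); of MRPS6 in SCNT (0.260), IVF-ET (0.188), both together (0.224), SCNT minus IVF-ET (0.0712), SCNT minus AI (0.112) and IVF-ET minus AI (0.0412); of MRPS34 (-0.103) and MRPS35 (-0.0754) in AI; of MRPL12 (0.0865) and MRPL55 (0.0792) in SCNT; and of MRPL16 (0.0462), MRPL19 (-0.0155) and MRPL15 (0.0831) in SCNT minus AI. MALSU1 in SCNT minus IVF-ET turned to -0.0767 with replicate 3 kept and its second array turned, and MRPL16 in IVF-ET minus AI to 0.0520 with AI turned. The cause was not tested. Under settings that kept every cow in use, 419 values for single genes kept both sign and side of the threshold. A further 4 kept their sign and newly passed, 11 kept it and no longer passed, and 18 turned sign. Of the counts, 66 stayed within 1.5 times and 17 moved. Of the medians, 33 stayed within 1 SD and 2 moved. With 1 cow left out, 498 values for single genes kept both, 4 newly passed and 30 no longer passed. There, 66 counts stayed and 32 moved, and 42 medians stayed.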
